A study of Mus musculus with 2 samples.

Results

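The proteasome genes of the mouse were examined for NRF1 binding in skeletal muscle. Members were all protein-coding RefSeq genes whose symbol begins with Psma, Psmb, Psmc, Psmd, Psme, Psmf or Psmg followed by a digit, which gave 51 genes of 21000. The rule used names only and no measured value. NRF1 was profiled by ChIP-seq, in which an antibody recovers the factor with the DNA it occupies, on nuclear extracts of skeletal muscle from wild-type male mice at 9 weeks of age. The 2 libraries of the series carry the same labels and form 1 group. The reporting summary of the study lists the library of replicate 2 as input DNA, against its label. A single peak list was deposited, all of its peak names bear the title of the library of replicate 1, and no value below has a replicate error. Whole muscle was used, so a peak cannot be assigned to the nuclei of myofibers rather than to those of other cells of the tissue. The list held 3226 peaks, of which 2607 had their summit, the point of highest signal, in a promoter. A promoter is here the stretch from 1000 bp before to 100 bp after any start of a known RefSeq transcript, and a peak with its summit there is called a promoter peak. Read depth cannot be learned from the list, so a gene without a peak is a gene without a detected one.

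The proteasome degrades proteins that carry ubiquitin, and it is the end point of one of the pathways through which muscle proteins are lost in atrophy. Its core particle is a barrel of rings, where α subunits form the gated outer rings and β subunits form the inner rings that hold the proteolytic sites. The regulatory particle caps the barrel, with a ring of ATPases that unfolds substrates and non-ATPase subunits that bind and remove ubiquitin. Dedicated chaperones assemble the rings and are absent from the finished particle. NRF1, nuclear respiratory factor 1, is best known for binding promoters of nuclear genes of mitochondria. A different factor, NFE2L1, shares the alias NRF1 and is known for raising proteasome gene expression when the proteasome is inhibited. These factors recognise unlike sequences, and both sequences were searched for at the proteasome promoters.

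The sequence that stood out at the peaks was taken from the list itself. Among 3119 peaks, with those in proteasome promoters left out, GCGCATGCGC was the palindrome of 10 bases found most often within 25 bp of summits, at 215 peaks, and the next palindrome was found at 43. It is the known binding sequence of nuclear respiratory factor 1 and is called the motif below. Copies with at most 1 mismatch were searched on both strands within 100 bp of each summit. The copies that lay closest to the summits of proteasome promoter peaks are shown first, since the values that follow are read against them. Each is given in mm10 on the strand of the gene, 5′ to 3′, with the 10 bases of the motif in capitals between 10 bases on either side.
Psma2, chr13:14613105-14613134, plus strand: ggcccctcttGCGCATGCGCaagggtcaaa
Psmg1, chr16:95990908-95990937, minus strand: gcgggccggcGCGCATGCGCtgtctggccg
Psma3, chr12:70974535-70974564, plus strand: tatggtttctGCGCACGCGCgctctctgct
Psma4, chr9:54950788-54950817, plus strand: tcgcagtcctGCGCACGCGCgggagccata
Psmc4, chr7:28050242-28050271, minus strand: aagagttactGCGCACGCGCaacatccttg
Psmd14, chr2:61711604-61711633, plus strand: caggcggcctGCGCGTGCGCtgtgtgctcc
Psmc5, chr11:106256126-106256155, plus strand: tttcgcctccGCGCCTGCGCgatagagtga

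These 7 peaks were all the proteasome promoter peaks with such a copy. Psma2 and Psmg1 held the exact palindrome, as did 10.9% of all promoter peaks, a share that would give about 1 of 12. Counting positions from 1 at the 5′ end of the motif, Psma3, Psma4 and Psmc4 had the change T6C, Psmd14 had A5G and Psmc5 had A5C. Read on the other strand, the Psmd14 copy is the same decamer as those of Psma3, Psma4 and Psmc4, so 4 of 12 proteasome promoter peaks held GCGCACGCGC on one strand or the other. Over the whole list this decamer was present at 508 peaks, or 15.7%. The most frequent variant with 1 mismatch was GCGCAGGCGC, at 713 peaks or 22.1%, and among the proteasome peaks it was found at Psmc5 alone.

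Of the 51 proteasome genes, 12 had a promoter peak, a share of 23.5%, against 13.4% of all protein-coding genes. The difference was not tested, because the genes of a list are not replicates and there is 1 peak list. The 12 genes were spread over the core particle, with 5 of 19, the regulatory particle, with 4 of 17, and the assembly chaperones, with 2 of 7, and the remaining one encodes an activator. The shares of the 3 groups were 26.3%, 23.5% and 28.6%. They lay close together with Psmd5, Psmd9 and Psmd10 counted as chaperones. With these genes placed in the regulatory particle instead, it had 4 of 20 and the chaperones had 2 of 4. In the core particle 4 of 8 α subunit genes had a promoter peak and 0 of 7 constitutive β subunit genes did. Among the chaperones, those of the core had 2 of 4 and those of the regulatory particle base 0 of 3. At the share of all coding genes about 1 of 7 genes and fewer than 1 of 3 would have a peak, so these counts of 0 lie near the background.

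**Figure D1:**
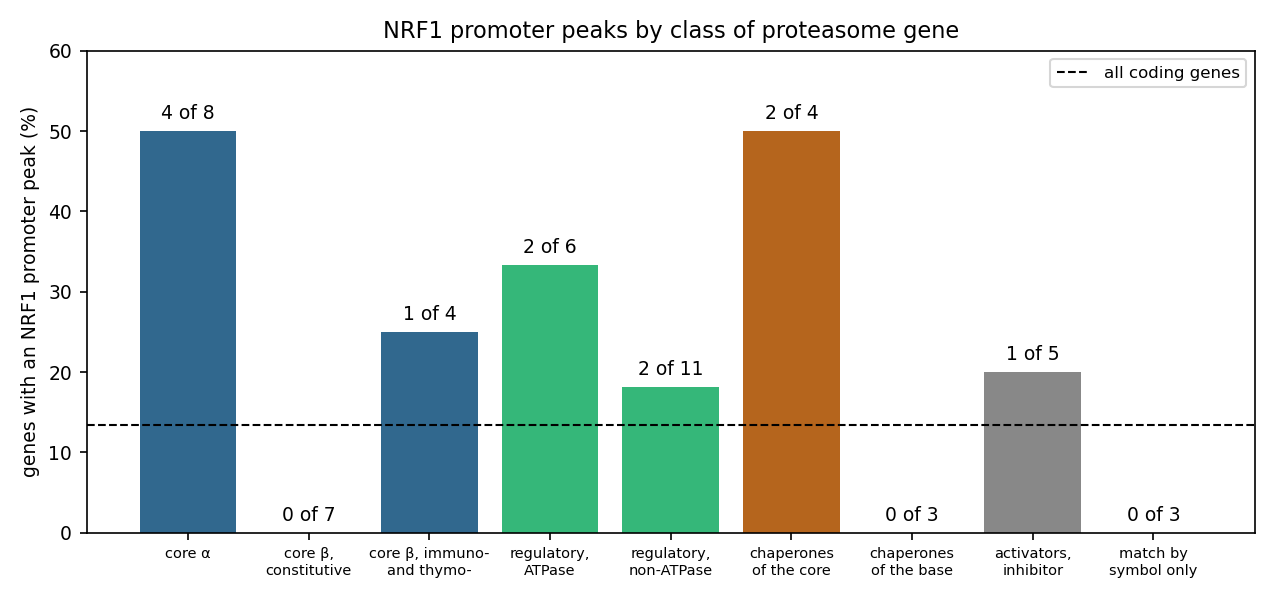
Share of genes with an NRF1 promoter peak in each class of proteasome gene, in percent, with the number of genes on each bar and all protein-coding genes as a dashed line at 13.4%. The α subunits and the chaperones of the core reach 50%, whereas the constitutive β subunits, the chaperones of the base and the genes matched by symbol only are at 0.

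The α ring held the highest fold enrichment among the proteasome peaks. Fold enrichment is the authors' ratio of the signal at the summit to the control background, and q is their false discovery rate. At Psma2 it was 22.6, with a −log10 q of 125.4, in a peak of 616 bp at chr13:14612832-14613447. This was rank 217 among the 2607 promoter peaks, and the peak was also the widest of the 12. Its summit lay 121 bp before the start of Psma2, between this gene and Mrpl32, which encodes a protein of the mitochondrial ribosome and starts 205 bp away on the other strand. The peak counted as a promoter peak of both genes. Within 100 bp of the summit it held, besides the exact palindrome, 2 copies with 1 mismatch, C2A and C10T. In the same window at least 3 copies were found at 49 peaks of the list, or 1.52%. A further copy with 1 mismatch, chr13:14613236-14613245, lay in the same peak 119.5 bp from the summit, at the start of Psma2. No other proteasome promoter peak had more than 1 copy over its whole width. The 3 copies near the summit stand in capitals in the 93 bases of chr13:14613042-14613134, from -200 to -108 bp relative to the start of Psma2, on the plus strand.
Psma2 upstream: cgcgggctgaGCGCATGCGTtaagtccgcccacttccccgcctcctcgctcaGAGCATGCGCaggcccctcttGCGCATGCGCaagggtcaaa

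The peaks of the other α subunit genes were lower. Psma4 had a fold enrichment of 16.3 and a −log10 q of 54.9, with the summit 71 bp before its start, at a position that is also a coding exon of the overlapping gene AY074887. Psma3 had a fold enrichment of 11.97 and a −log10 q of 21.3, with the summit 58 bp before the start. Psma1 had 6.97 and 8.75, with the summit 103 bp before the start, and ranked 2134 among promoter peaks. The motif within 100 bp of the Psma1 summit had 2 mismatches at best, whereas Psma3 and Psma4 had a copy within 16 bp of the summit.

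A further α subunit gene, Psma5, had a peak just beyond the promoter window. Its fold enrichment was 13.1 and its −log10 q 36.0, and the summit lay 163 bp after the start, in the non-coding part of an exon of Psma5. The copy at this peak was again the decamer with T6C, centred 232 bp after the start and 69 bp from the summit. It is shown on the plus strand for comparison with Psma3 and Psma4.
Psma5, chr3:108257143-108257172, plus strand: aaggtcgcgtGCGCACGCGCagacggctgc

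With any overlap of peak and promoter counted, or with a promoter reaching 500 bp after the start, Psma5 became the fifth of 8 α subunit genes and the count of proteasome genes rose to 13. Psma6, Psma7 and the testis subunit gene Psma8 had no peak, and their nearest summits lay 81229, 17647 and 77052 bp from a start. Over all coding genes without a promoter peak the median of this distance was 186975 bp. For the 39 proteasome genes without one it was 90778 bp. The distances given below for single genes are read beside these medians.

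No constitutive β subunit gene had a peak. The nearest summits lay between 14652 bp, at Psmb6, and 354365 bp, at Psmb7. Psmb5, Psmb6 and Psmb7 encode the subunits with proteolytic activity, and the 3 distances of this trio were 63354, 14652 and 354365 bp. Of the immunoproteasome genes, whose products replace the proteolytic subunits in cells exposed to interferon, Psmb9 had a promoter peak and Psmb8 and Psmb10 did not. The Psmb9 peak at chr17:34187314-34187486 was the narrowest of the 12, at 173 bp, with a fold enrichment of 5.42 and a −log10 q of 7.59. Its summit lay 52 bp before the start of Psmb9 and in the promoter shared with Tap1, which encodes a peptide transporter of antigen presentation and starts 226 bp away. No copy with at most 1 mismatch was present. With the start that GENCODE M21 gives to Psmb9, 434 bp further upstream, the summit lay 382 bp after the start and Psmb9 no longer had a promoter peak. Psmb11, the subunit of the thymus, had its nearest summit at 61024 bp.

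In the regulatory particle 2 of 6 ATPase genes and 2 of 11 non-ATPase genes had a promoter peak. Psmc4 encodes a subunit of the ATPase ring, and its peak had a fold enrichment of 20.1 and a −log10 q of 50.96, with the summit 137 bp before the start. The Psmc5 peak, at another gene of the ring, had 14.3 and 37.6, with the summit 124 bp before the start and in the non-coding part of an exon of Ftsj3, a gene of ribosomal RNA modification that starts 101 bp away on the other strand. This peak counted for both genes. Its copy of the motif was the farthest from a summit among the 7, at 80 bp, and lay closer to the start of Psmc5. Psmc1, Psmc2, Psmc3 and Psmc6 had their nearest summits between 21269 and 903116 bp away.

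The non-ATPase genes with a peak were Psmd14, which encodes the deubiquitinase of the lid, and Psmd2, which encodes a scaffold that docks ubiquitin receptors. Psmd14 had a fold enrichment of 12.9 and a −log10 q of 29.0, with the summit 61 bp before the start. Psmd2 had 13.5 and 28.2, with the summit 48 bp after the start, in the non-coding part of an exon. The values of the pair were alike, but the motif was not: Psmd14 held a copy within 15 bp of the summit and Psmd2 was the only proteasome peak without a copy even at 2 mismatches. The 30 bases at the Psmd2 summit, chr16:20651686-20651715 on the plus strand, are shown as the sequence under the one summit without a copy, and they hold 5 CpG. The search itself covered 100 bp on either side of the summit.
Psmd2 summit: cgcgcgcagcaggccggcagtagtggcgga

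Among the 9 non-ATPase genes without a promoter peak the nearest summit lay from 64278 bp away, at the ubiquitin receptor gene Psmd4, to 1836732 bp, at Psmd6.

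Of the chaperones of the core, 1 gene of each pair had a peak. The products of Psmg1 and Psmg2 work as a dimer, and so do those of Psmg3 and Psmg4. Psmg1 had a fold enrichment of 14.4 and a −log10 q of 30.9, with its summit 31 bp after the start and the exact palindrome centred 7 bp from that summit. Psmg4 had 15.6 and 34.99, with the summit 61 bp after the start. Its best copy of the motif had 2 mismatches, A5C and G9C. Both summits lay in the non-coding part of an exon. The nearest summits to Psmg2 and Psmg3 were 83013 and 454629 bp away. The chaperones of the base, Psmd5, Psmd9 and Psmd10, had theirs 68653, 116194 and 1433778 bp away.

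Psme3 was the only activator gene with a promoter peak, and its peak was the lowest of the 12. Psme3 encodes the nuclear activator PA28γ. Its fold enrichment was 5.39 and its −log10 q 6.13, at chr11:101316024-101316218, with the summit 71 bp before the start. The genes of the interferon-inducible activator, Psme1 and Psme2, had their nearest summits 6831 and 5696 bp away. Psme4 and the inhibitor gene Psmf1 had theirs 299873 and 165086 bp away. The 3 genes that match by symbol alone, Psmc3ip, which acts in meiotic recombination, Psme2b and Psme3ip1, had no promoter peak, and without them the count was 12 of 48.

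Across the 12 peaks fold enrichment ran from 5.39 to 22.6 with a median of 13.9, and 9 of them were above 11.1, the median of all promoter peaks. The quartiles of all promoter peaks were 7.90 and 16.4. The 7 peaks with a copy of the motif ranged from 11.97 to 22.6, with a median of 14.4. The 5 peaks without one ranged from 5.39 to 15.6, with a median of 6.97. The ranges overlapped through Psmg4 and Psmd2, whereas Psma1, Psmb9 and Psme3 lay below every peak with a copy. Over all promoter peaks the medians were 12.9 with a copy and 8.58 without.

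**Figure D2:**
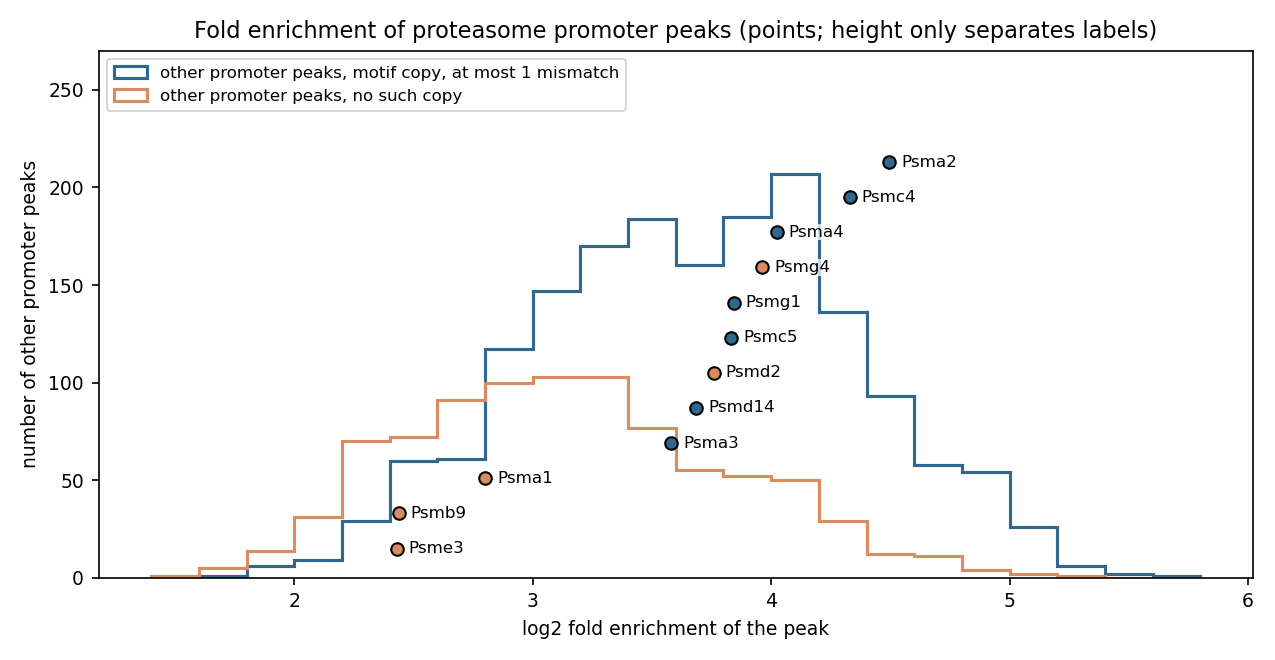
Points show the log2 fold enrichment of the 12 proteasome promoter peaks, blue with a motif copy of at most 1 mismatch within 100 bp of the summit and orange without; their height only separates the labels. The lines are histograms of the other promoter peaks, and Psme3, Psmb9 and Psma1 fall below the rest of the proteasome peaks.

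The share of peaks with a copy, 7 of 12 or 58.3%, was close to the 65.9% of all promoter peaks. With up to 2 mismatches it was 11 of 12 or 91.7%, against 91.0%. Summits lay before the gene's own start at 9 of the 12 genes, with a median position of -66 bp, and after it at Psmd2, Psmg1 and Psmg4. Measured from the nearest start of any coding gene, which is that of the neighbour for the shared Psma2 and Psmc5 peaks, 8 of the 12 summits lay before the start, or 66.7%, with a median of -59.5 bp. Of all promoter peaks, which include those at starts of non-coding genes, 78.8% had the summit before the start, with a median of -50 bp.

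**Figure D3:**
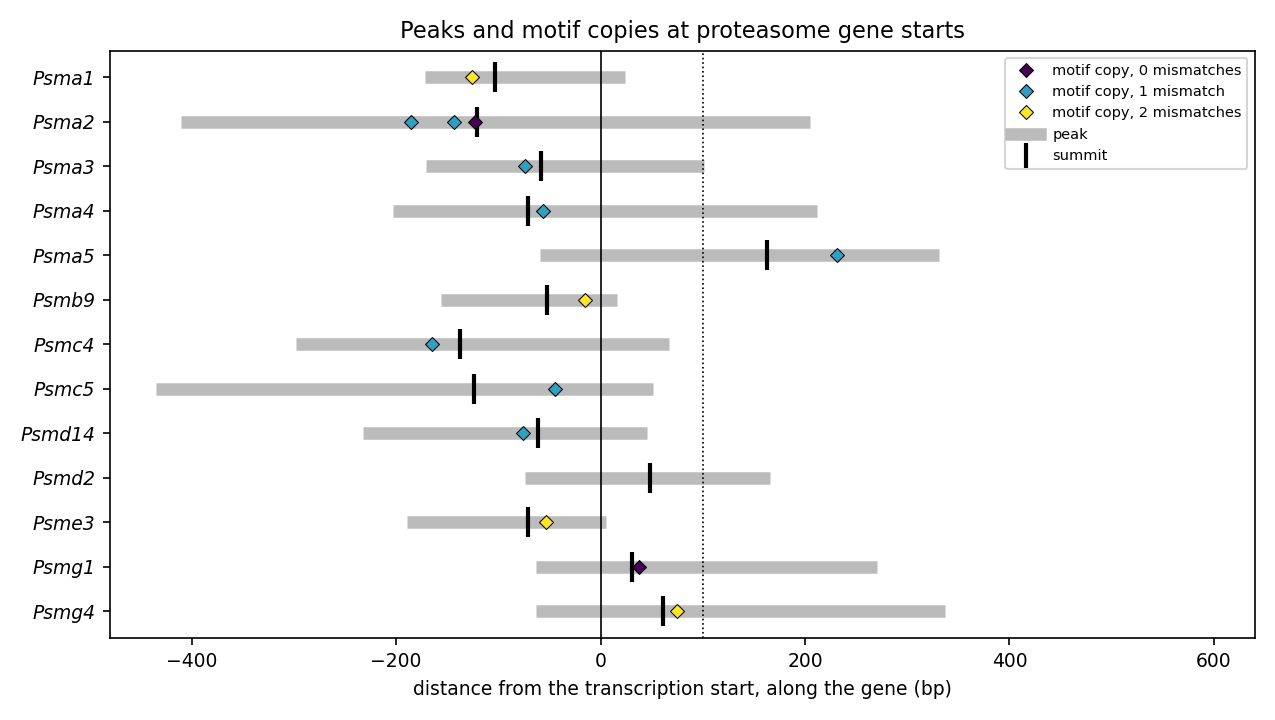
Each row is a gene, drawn along its own direction in bp from the transcription start at 0, with the peak as a grey bar, the summit as a black mark and motif copies within 100 bp of the summit as diamonds coloured by mismatches. Copies with 2 mismatches are drawn only where no better one exists, and the dotted line marks the end of the promoter window at 100 bp, beyond which the Psma5 summit lies.

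Over the whole promoter, 7 of the 51 genes held a copy with at most 1 mismatch, and all 7 had a promoter peak. None of the 39 genes without a promoter peak held one. Among all coding genes 2548, or 12.1%, held such a copy, and 75.4% of these had a promoter peak. At that share about 5 of 7 would have one, so 7 of 7 lies near the background. The share of proteasome genes with a copy, 13.7%, was close to the 12.1% of all coding genes. Of the 44 proteasome genes without a copy 5 had a peak, against 4.81% of coding genes without a copy. With 2 mismatches allowed, 20 proteasome genes held a copy, and of the 13 that held nothing better 4 had a peak and 9 did not, where 13.9% of all coding genes with such a best copy had one. At that stringency 37.3% of all coding genes held a copy.

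The base composition of the promoters was set beside these counts, since it moves with NRF1 peaks over the whole genome. A start was called CpG-rich where the 300 bases from 250 bp before to 50 bp after it had a ratio of observed to expected CpG of at least 0.6 and a GC content of at least 55%. Of the 24 proteasome genes with a CpG-rich start 9 had a peak, or 37.5%, against 25.8% of all coding genes with one. Of the 27 other proteasome genes 3 had a peak, against 4.27%. These were Psma2, Psma3 and Psmb9. Psma2, with a GC content of 54.7%, and Psmb9, with a ratio of 0.5996, fell just short of a limit, and Psmc5, with a GC content of 55%, lay on it and was counted as CpG-rich. Where a gene had several starts, the one nearest the summit was used with a peak and the most upstream one without. The shares over all coding genes may depend on this choice. The part of base composition in the proteasome counts was not tested.

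The same measures were compared for the constitutive β genes, none with a peak, and the α genes. For the β genes the median CpG ratio was 0.889 and the median GC content 54%, and the α genes had 0.822 and 56.8%. Over all coding genes the medians were 0.5998 and 56.7%. CpG-rich starts were found at 2 of 7 β genes and 4 of 8 α genes, around the 42.4% of all coding genes. The motif with at most 1 mismatch was present in the promoters of 0 of 7 β genes and 3 of 8 α genes, where the 12.1% of all coding genes would give about 1 gene in each class. The immunoproteasome and thymus genes had a lower median ratio, 0.357.

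**Figure D4:**
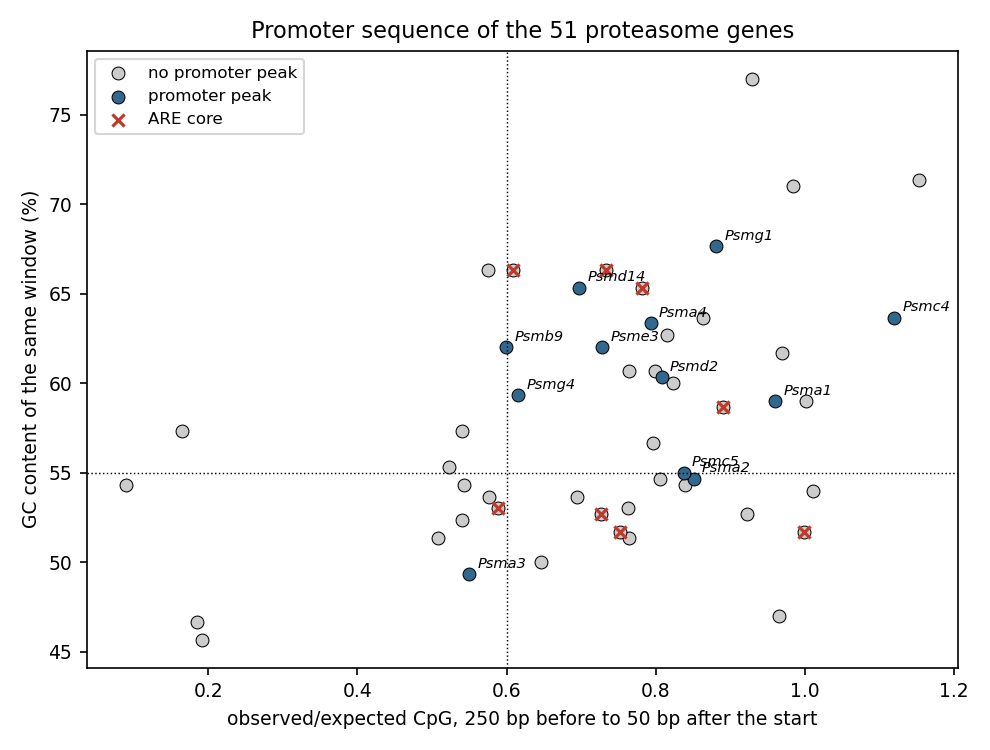
Ratio of observed to expected CpG against GC content around the start of each of the 51 proteasome genes, blue with a promoter peak and grey without, with dotted lines at 0.6 and 55%. Red crosses mark the 8 genes with an antioxidant response element core (ARE core) in the same window, none of which has a peak.

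The element known for NFE2L1, the antioxidant response element with the core TGACNNNGC, was then searched on both strands of the same 300 bases. It was present at 8 of 51 proteasome genes, or 15.7%, and at 12.9% of all coding genes. None of the 12 genes with an NRF1 promoter peak held it, and 8 of the 39 without a peak did. Of all coding genes with a promoter peak 14.9% held the core, a share at which fewer than 2 of 12 genes would hold it, so the count of 0 lies near the background. Of the 8 genes with the core, 3 were constitutive β genes. That is 42.9% of the 7 genes of this class, beside 12.9% of all coding genes, and so small a count was not tested. At Psmb2 the core TGACTGGGC was centred 10 bp before the start, at Psmb5 TGACGTCGC 43 bp before it and at Psmb6 TGACGGAGC 5 bp before it. At the other genes the core was centred at -3 bp from the start for Psme4, -27 bp for Psmd9, -104 bp for Psmd7, -223 bp for Psmc6 and -243 bp for Psmd12. Over the full promoter window 4 of the 12 genes with a peak and 16 of the 39 without one held the core, beside 39.8% of all coding genes with a promoter peak and 36.4% of all coding genes. A core of these letters is a description of the sequence and not an occupied site, and NFE2L1 was not profiled.

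Promoters that serve a pair of genes were counted as well. A protein-coding gene on the other strand started within 1000 bp upstream, or overlapped by less than 100 bp, at 11 of the 51 genes, and 4 of these had a promoter peak. Over all coding genes 1900 of 21000 had such a neighbour, a smaller share, and 33.5% of these had a promoter peak. The part of such neighbours in the proteasome counts was not tested. Without a neighbour it was 8 of 40 proteasome genes and 11.4% of all coding genes. The 4 were Psma2, Psma4, Psmb9 and Psmc5. The 7 without a peak were Psma7, Psmc2, Psmd10, Psmd13, Psme2, Psme3ip1 and Psmg2, whose neighbours started between 19 bp, at Psma7, and 641 bp, at Psme2, away.

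Other genes that act with the proteasome were examined from a list of 19 chosen by role, of which 18 symbols were found in the annotation. Promoter peaks were found at 3 of 18 genes, or 16.7%, beside the 13.4% of all coding genes. Rad23b, which encodes a shuttle protein that delivers ubiquitinated substrates, had a fold enrichment of 19.2, with the summit 73 bp before the start. Akirin2, needed for import of proteasomes into the nucleus, had 10.6 at 29 bp before the start. Both promoters held a copy of the motif with at most 1 mismatch. Ngly1, whose product activates NFE2L1, had 3.01 with a −log10 q of 1.497, the lowest rank of the 2607 promoter peaks, in a promoter shared with Oxsm. That q exceeds 0.01, the limit named in the methods, and with q of at most 1e-05 the count was 2. Nfe2l1 itself had no promoter peak, and its nearest summit was 34798 bp away. Pomp, the maturation factor of the core, and the regulatory particle genes outside the Psm names, Adrm1 and Sem1, had none either, at 430464, 101030 and 377340 bp. Of the 15 genes of the list without a promoter peak, Txnl1 alone held a copy of the motif with at most 1 mismatch in its promoter.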

How the data were processed

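NRF1 ChIP-seq libraries of mouse skeletal muscle were sequenced by the authors as single-end reads, mapped to mm10 with Bowtie and restricted to uniquely mapped reads, and peaks were called with MACS2 against input DNA. The methods give a broad setting and a blacklist of a human build, but the list as deposited is in narrow-peak format, and no source used here says if libraries were merged. The deposited values are a fold enrichment, which is a ratio, a −log10 p and −log10 q, and a score that the authors' caller derives from q and that was not used. Unique mapping can remove signal from recent gene copies such as Psme2b, and fold enrichment depends on the control. Of 3226 peaks, 3219 had a q of at most 0.01. Both counts exceed the number of NRF1 binding sites that the paper reports, so the list is not the same set.

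Starts and sequence came from RefSeq for GRCm38.p6, the assembly of mm10, with known transcripts only. The summit was the peak start plus the summit distance. Peaks on chromosome 18 were left out of the search for the motif. Python 3.11.15, pandas 2.3.3, pysam 0.24.0 and matplotlib 3.10.9 were used, and the promoter rule and the motif search were tested on simulated data. Each gene was taken at the start nearest its summit or, without a peak, at the most upstream start. With 1 peak list no test was run: counts, medians and ranges stand beside those of all coding genes or peaks. All genes with a promoter peak were named, and of the others those with a summit within 5000 bp of a start and the rest by class. One gene of the list of other pathway genes is not reported here and was left out of its counts. Members and lists were chosen with earlier results of these data known. The alternatives were stricter peaks, any overlap, other promoter windows, predicted starts, other mismatch limits and a motif search within 50 bp of the summit. Others left out the genes matched by symbol only, or placed Psmd5, Psmd9 and Psmd10 in the regulatory particle. GENCODE M21 basic starts and coding transcripts alone were added after seeing the data.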

Additional observations from a re-analysis of the deposited data

How the results depend on the processing

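Of 72 alternative values for 10 counts and shares, 68 stayed within 1.5 times the value reported. Regrouped genes were judged by count and not by share. The stricter peaks had a fold enrichment of at least 5 or a q of at most 1e-05. Every proteasome promoter peak passed both, so neither limit could change the proteasome counts. The genes matched by symbol only had no promoter peak, so leaving them out could not change the count of peaks. The proteasome count lay between 11 and 13, and only Psma5, which was gained, and Psmb9, which was lost with GENCODE M21 starts, changed. The regulatory particle count stayed at 4 and the chaperone count at 2, and the constitutive β genes stayed at 0 under every alternative run. The shares of the first pair moved with the grouping. With Psmd5, Psmd9 and Psmd10 placed in the regulatory particle, that group had 4 of 20, against 4 of 17. The chaperones then had 2 of 4, against 2 of 7. The share of all coding genes lay between 12.8 and 14.7%. The counts of the motif depended on the mismatches allowed, by construction. With no mismatch 2 of the 12 peaks and 2 of the 51 promoters held it, beside 10.9% of all promoter peaks and 1.75% of the promoters of all coding genes, and with at most 2 mismatches 11 peaks and 20 promoters did.

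No paired analysis was possible because only 1 peak list, of 1 group, was analysed, and leaving out a replicate was not run for the same reason. Read depth is unknown and limits every statement on a gene without a peak.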
